A study of Saccharomyces cerevisiae with 18 samples.

Results

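The step from 50 and 100 nM to 500 nM *α*-pheromone was examined in 5 of the 18 libraries of a dose series in *MAT***a** budding yeast. These are the 2 libraries at 500 nM, 1 in each of 2 experiments, and the 3 libraries at 50 and 100 nM, of which experiment 1 has both doses and experiment 2 only 50 nM. The libraries were chosen by their labelled dose alone. Cells of strain yAA95 were treated for 60 min, and their RNA was depleted of ribosomal RNA and sequenced in a strand-specific manner. All groups share this strain, in which *BAR1*, encoding the protease that degrades *α*-pheromone, is replaced by kanMX6, *MFα1* by SpHIS3, *MFα2* by hphNT1 and *ARG4* by klTRP1. It carries at *ura3* the plasmid pAA35, in which the *FUS1* promoter drives an sfGFP reporter, and its parent has a loss-of-function allele of *kss1*, the gene of the other MAPK of the pathway, and auxotrophic alleles of *LEU2*, *URA3*, *HIS3*, *TRP1* and *LYS2* besides a deletion of *SUC2*.

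*α*-Pheromone binds the receptor Ste2 on *MAT***a** cells and acts through a G protein and a MAPK cascade on the transcription factor Ste12, which turns on genes for mating. Cells that respond strongly stop dividing and grow a mating projection, at whose tip the wall is remodelled. Stress on the wall is sensed by the cell wall integrity pathway, in which Rho1, Pkc1 and the MAPK Slt2 act on the transcription factor Rlm1. Pheromone also opens calcium influx, and calcium activates the phosphatase calcineurin, which sends the factor Crz1 to the nucleus. In bulk RNA, fewer cells with a transcript and less of it per cell cannot be told apart.

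Levels are in RPKM, reads scaled by transcript length and by the number of mapped reads, and differences are on the log2(RPKM + 1) scale, which understates changes of weakly expressed genes. The 5995 genes with a mean of at least 1 RPKM were tested with limma in a fit of all 18 libraries with the experiment as a block. Genes are said to rise or fall where the Benjamini-Hochberg adjusted p was under 0.05, the change at least 2-fold and its direction shared by both experiments. The libraries held 4870000 to 16660000 mapped reads, and the 500 nM library of experiment 1 was the shallowest of the 18. There, 3 reads on a transcript of 1 kb amount to 0.617 RPKM, a limit that covers counting error only. *BAR1* stayed at or under 0.288 RPKM in every library, and *STE2* was at 993 to 1148 RPKM in the 5 libraries of the step.

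Between 50 to 100 nM and 500 nM, 45 genes rose and 10 fell, which are 0.751% and 0.167% of the genes tested. Of the genes that rose, 41 are coding, 2 are tRNA genes and 2 are other reading frames. Of those that fell, 3 are coding, 6 are tRNA genes and 1 is another reading frame. The rises ran from 1.00 to 2.41 on the log2 scale with a median of 1.26, and their adjusted p-values from limma lay between 0.00725 and 0.0488. In 44 of the 45, all but *CWP1*, both 500 nM libraries lay above the 3 libraries at 50 and 100 nM, an order seen in 21.1% of all genes tested. The call was made on these same libraries and favours this order, so the order adds no support. The median change of all genes was 0.05, with 3559 of the 5995 above 0 and 2436 below.

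The calls depended on single libraries. Without the 500 nM library of experiment 1 there were 2 genes called higher and 0 lower, and without that of experiment 2 there were 4 and 3. Without the 50 nM library of either experiment there were 2 and 0. Without the 100 nM library there were 94 (1.57%) and 14 (0.234%). A comparison of 500 with 50 nM only, in the same 18 libraries, gave the same numbers and the same changes. There the single 100 nM library has a level of its own, so this is not a separate result. Of the 45 genes, 44 were also called against 50 nM only. When only the 5 libraries entered the fit, limma called 0 genes in either direction (lowest adjusted p 0.143), while 1670 had an unadjusted p under 0.05. In every one of these fits all 45 kept the sign of their change. The call requires a shared direction in both experiments and these fits reuse its libraries, so this adds no support.

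**Figure D1:**
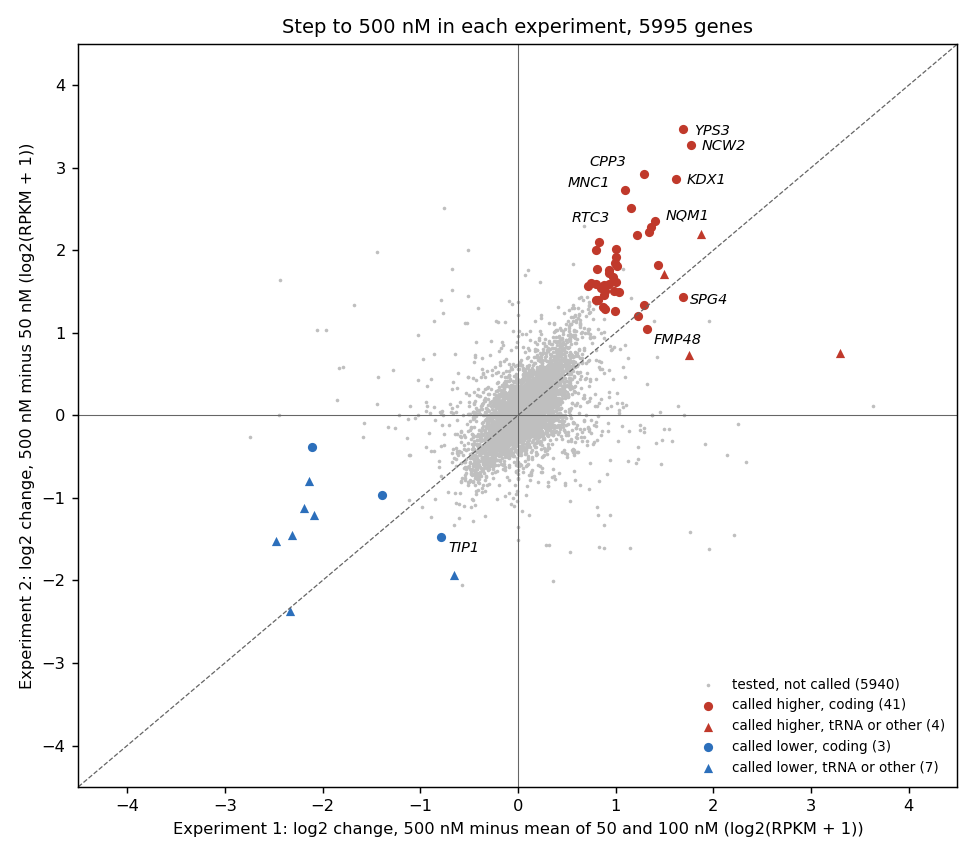
Change from 50 and 100 nM to 500 nM in experiment 1 (x axis) and from 50 to 500 nM in experiment 2 (y axis), both as differences of log2(RPKM + 1), for 5995 genes. Red points are the 45 genes called higher and blue points the 10 called lower, with circles for coding genes, triangles for the rest and a dashed line at equal change, and 40 of the 45 red points show the larger change in experiment 2.

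The 3 largest rises among coding genes were those of *YPS3*, *NCW2* and *KDX1*, genes linked to the cell wall. *NCW2* (YLR194C, chrXII:540809-541573 in R64, minus strand, coding), encoding a GPI-anchored protein of wall remodelling, was at 93.0, 436 and 692 RPKM at 50, 100 and 500 nM in experiment 1 and at 61.4 and 605 RPKM at 50 and 500 nM in experiment 2. Both 500 nM libraries were above all others, and the 100 nM library lay between. *NCW2* rose by 2.32 (standard error 0.55, adjusted p = 0.0237, limma), and from 0 to 20 nM, over 13 libraries, it had not exceeded 51.9 RPKM (lowest 27.7, median 35).

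*YPS3* (YLR121C, chrXII:388744-390270, minus strand), encoding an aspartic protease of the yapsin family, was at 7.11, 42.1 and 59.5 RPKM in experiment 1 and at 4.26 and 57.1 RPKM in experiment 2. It too was highest in both 500 nM libraries. It rose by 2.41 (standard error 0.58, adjusted p = 0.0245), and it was at 13.1 and 8.99 RPKM in the mock-treated libraries. *KDX1* (YKL161C, chrXI:149386-150687, minus strand), encoding a protein kinase related to Slt2, was at 19.9, 77.3 and 123 RPKM in experiment 1 and at 14.5 and 112 RPKM in experiment 2. No library at 50 or 100 nM reached either 500 nM library. Its rise was 2.07 (standard error 0.46, adjusted p = 0.0218), and from 0 to 20 nM it ranged only from 10.3 to 13.2 RPKM.

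**Figure D2:**
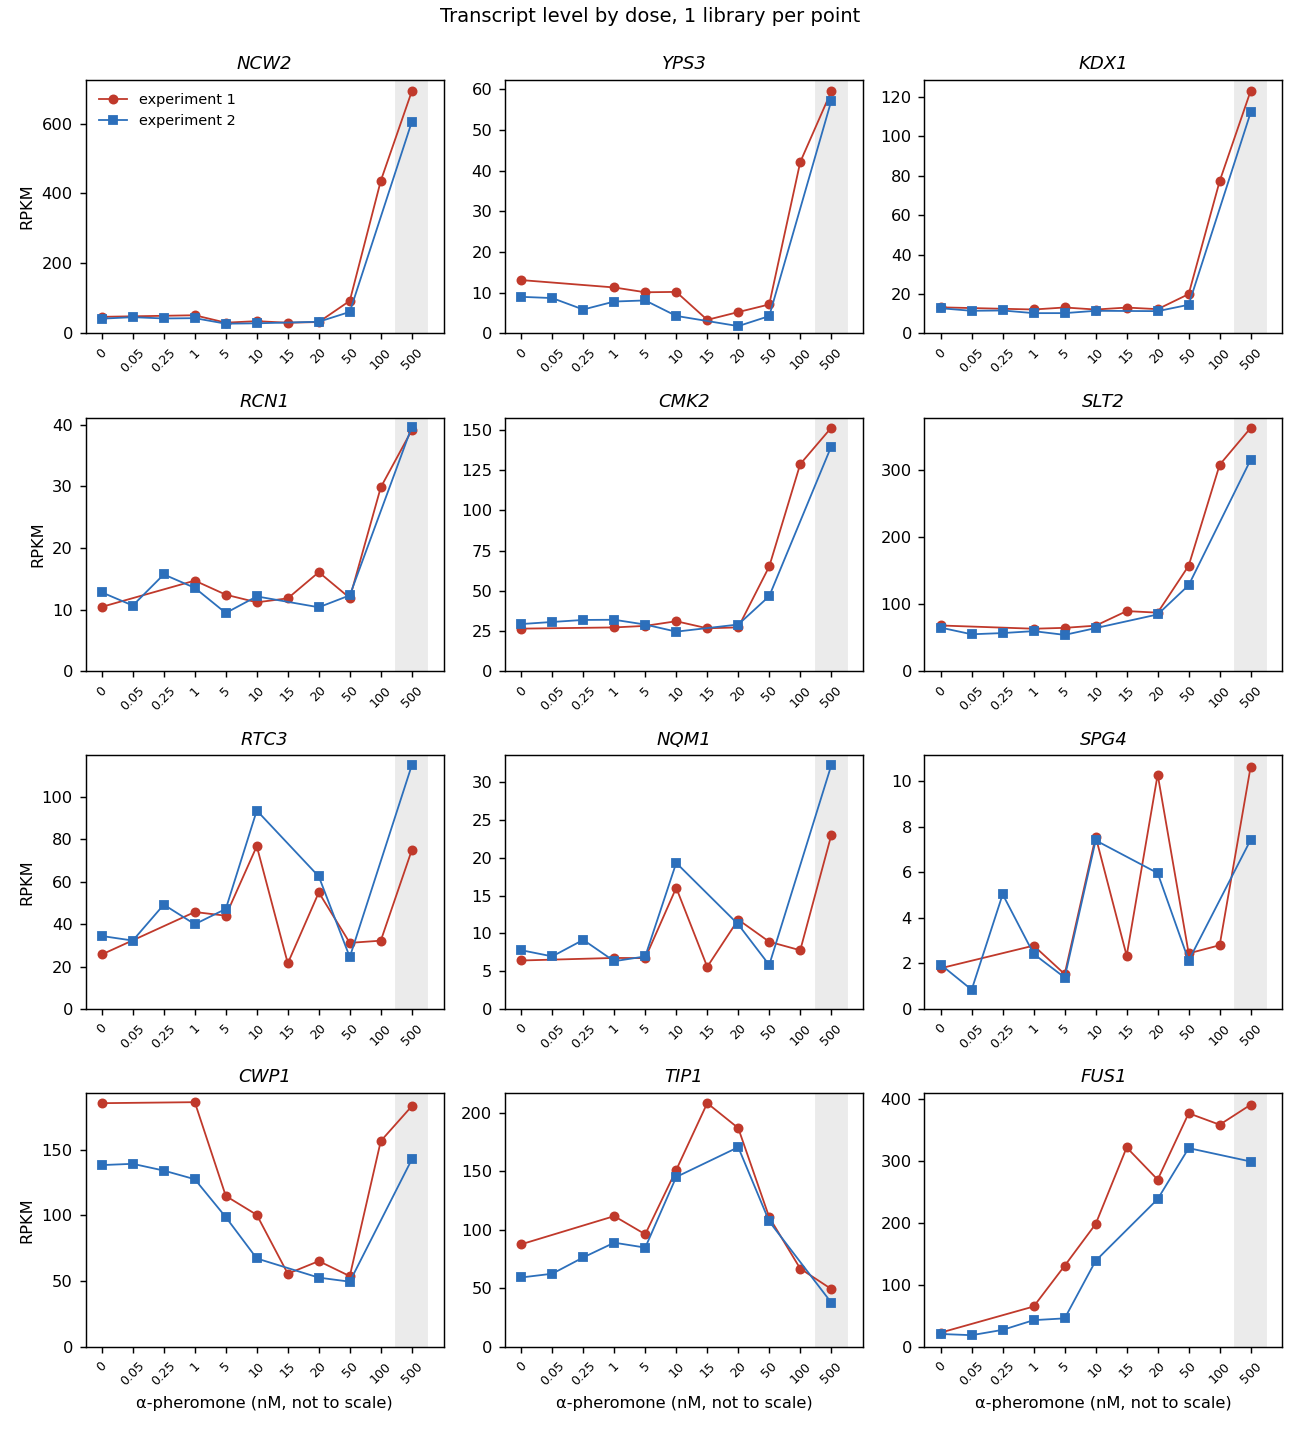
RPKM (y axis, starting at 0) against the dose of *α*-pheromone (x axis, nM, in order and not to scale) for 12 genes, with red circles for experiment 1, blue squares for experiment 2, 1 library per point and a grey band at 500 nM. *NCW2*, *YPS3*, *KDX1*, *RCN1*, *CMK2* and *SLT2* stay low up to 20 nM and are highest at 500 nM in both experiments, *RTC3*, *NQM1* and *SPG4* are high at 10 nM and again at 500 nM, *CWP1* comes back to its mock level, *TIP1* falls below it and *FUS1* differs little from 50 nM onwards.

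Of 43 tested genes of cell wall integrity signalling and targets of Rlm1, 7 rose and none fell (0.751% and 0.167% of all genes). They are *YPS3*, *NCW2*, *KDX1*, *CWP1*, *DFG5*, *PST1* and *GSC2*. The median change of the list was 0.35, beside 0.05 for all genes, and 38 members were above 0, as were 3559 of all 5995 genes. Without a limit on the fold, 21 of the 43 (48.8%) passed the adjusted p higher and 0 lower, whereas 11.8% of all genes did so higher and 8.67% lower. *GSC2* (YGR032W, chrVII:548264-553951), encoding an alternative catalytic subunit of the *β*-glucan synthase, was at 121, 232 and 314 RPKM in experiment 1 and at 113 and 279 RPKM in experiment 2. The 500 nM libraries were again the highest, with a rise of 1.01 (standard error 0.24, adjusted p = 0.0243). *DFG5* (YMR238W), encoding a GPI-anchored protein of wall biogenesis, rose by 1.11 (standard error 0.26, adjusted p = 0.0232).

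The components of the pathway itself were not called. The sensor gene *SLG1* had 0.01, *PKC1* 0.06 and the MAPK kinase kinase gene *BCK1* 0.01, with adjusted p-values from 0.569 to 0.961. *SLT2* (YHR030C, chrVIII:168890-170344, minus strand), encoding the MAPK, was at 158, 308 and 363 RPKM in experiment 1 and at 128 and 316 RPKM in experiment 2. Both 500 nM libraries were above the other 3, if only just above 100 nM. Its change of 0.92 (standard error 0.24, adjusted p = 0.0286) stayed under 2-fold, whereas against 50 nM only it was 1.246 (standard error 0.07, adjusted p = 1.02e-05), past both limits. *RLM1* had 0.49 (adjusted p = 0.0431), *RHO1* 0.35 (adjusted p = 0.0255) and the sensor gene *MID2* 0.39 (adjusted p = 0.0246), all under 2-fold.

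*CWP1* and *PST1*, encoding wall proteins, were among 9 rising genes that had been lower than in mock-treated cells. The limit was 1.5-fold in the mean of 50 and 100 nM, averaged over both experiments. In experiment 1 *CWP1* and *PST1* were closer to mock at 100 nM than at 50 nM. *CWP1* (YKL096W, chrXI:261132-261851) was at 53.8, 157 and 183 RPKM in experiment 1 and at 49.6 and 143 RPKM in experiment 2, beside 185 and 138 RPKM in the mock-treated libraries. The 100 nM library of experiment 1 exceeded the 500 nM library of experiment 2, so the groups overlapped, and the rise was 1.18 (standard error 0.33, adjusted p = 0.0325). *PST1* (YDR055W, chrIV:563527-564861) was at 46.0, 70.6 and 115 RPKM in experiment 1 and at 46.7 and 114 RPKM in experiment 2, beside 87.4 and 76.6 RPKM in the mock-treated libraries. Its groups did not overlap, and it rose by 1.09 (standard error 0.15, adjusted p = 0.0174). The others were *FMP48*, *THI4*, YBR071W, YIL028W and, on few reads, 2 tRNA genes and YLR163W-A.

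Of 26 tested cell wall mannoprotein genes, some of them also counted above, 4 rose and 1 fell (0.751% and 0.167% of all genes). The one that fell was *TIP1* (YBR067C, chrII:372103-372735, minus strand), encoding a mannoprotein of the wall. *TIP1* was at 111, 66.8 and 49.4 RPKM at 50, 100 and 500 nM in experiment 1 and at 107 and 37.8 RPKM at 50 and 500 nM in experiment 2. Both 500 nM libraries were below the other 3, and it fell by 1.05 (standard error 0.21, adjusted p = 0.0191). Its course over the doses was not monotonic, since it was at 87.6 and 59.2 RPKM in mock-treated cells and reached 208 RPKM at 15 nM in experiment 1 and 170.4 RPKM at 20 nM in experiment 2. *SCW4*, encoding a wall protein similar to glucanases, had -0.90 (adjusted p = 0.0210), just short of 2-fold.

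Of 27 tested genes of calcium influx, calcineurin and its targets, 4 rose and none fell (0.751% and 0.167% of all genes). They are *RCN1*, *GYP7*, *CMK2* and *GSC2*, the last of which is also on the list of the cell wall integrity pathway. The median change was 0.21, beside 0.05 for all genes. With libraries centred on their median the list had 0.14, but centring lowers the change of every gene by the same amount. Above 0 were 26 of the 27, and 3559 of all 5995 genes. At any fold 9 (33.3%) passed the adjusted p higher and 0 lower, beside 11.8% and 8.67% of all genes. *RCN1* (YKL159C, chrXI:153816-154451, minus strand), encoding a regulator of calcineurin, was at 11.9, 29.9 and 39.1 RPKM in experiment 1 and at 12.3 and 39.7 RPKM in experiment 2. Both 500 nM libraries were above the other 3, and the 50 nM libraries lay within the 9.45 to 16.1 RPKM seen from 0 to 20 nM. It rose by 1.245 (standard error 0.31, adjusted p = 0.0254).

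*CMK2* (YOL016C, chrXV:294777-296120, minus strand), encoding a calmodulin-dependent kinase, was at 65.1, 129 and 151 RPKM in experiment 1 and at 46.7 and 139.7 RPKM in experiment 2. Its 500 nM libraries were the highest, and it rose by 1.01 (standard error 0.30, adjusted p = 0.0381). *GYP7*, encoding a GTPase-activating protein for Ypt GTPases, rose by 1.09 (adjusted p = 0.0254). The genes of calcineurin and its factor had 0.01 (*CNA1*), 0.03 (*CNB1*), 0.17 (*CRZ1*) and 0.52 (*CMP2*), of which the last had an adjusted p of 0.0291 under 2-fold and the others 0.106 to 0.933. *RCN2*, encoding another calcineurin regulator, had 0.81 (adjusted p = 0.0270) and the vacuolar calcium pump gene *PMC1* 0.62 (adjusted p = 0.0287). *PHO89*, encoding a phosphate transporter, was below the limit for testing, at 0.295, 0.705 and 2.26 RPKM in experiment 1 and 0.34 and 3.44 RPKM in experiment 2.

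The promoters of the 41 rising coding genes were searched on both strands for the recognition sequences of transcription factors, from 250 bases before to 50 bases after the first base of the start codon (RefSeq, R64). GAGGCT, a core of the sequence bound by Crz1, was found in 13 of 41 (31.7%), in 7.14% of the 5898 promoters of all coding genes and in 17.8% of the 90 coding genes called against 50 nM only. There were 15 matches, 14 of them ahead of the start codon, and 1 overlapped a match to another of the sequences. TGACTC of Gcn4 was found in 6 (14.6%, 8.12% of all) and AGGGG of Msn2 and Msn4 in 12 (29.3%, 22% of all). CNCGAAA of SBF was found in 5 (12.2%, 14.1% of all), TGAAACA of Ste12 in 3 (7.32%, 7.29% of all) and the sequence of Rlm1, CTA and TAG with any 4 bases between, in 3 (7.32%, 5.65% of all), but in 0 of the 7 rising genes of the cell wall integrity list. ACGCGT of MBF was found in 2 (4.88%, 3.12% of all). These shares are descriptions without a test, and a match is not a binding site.

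The promoters with GAGGCT were those of *YPS3*, *NCW2*, *RCN1*, *GYP7*, *CMK2*, *MNC1*, *YPT53*, *RTA1*, *CLD1*, *SPG4*, *GPG1*, YBR071W and YOR385W. To show where the match lies in wall and calcineurin genes, 4 promoters are given here, picked after the counts were known. All are from the minus strand of R64, 5′ to 3′, with GAGGCT or its reverse complement AGCCTC in capitals. Relative to the first base of the start codon, the match starts at -233 in *NCW2* (chrXII:541524-541823), at -154 in *YPS3* (chrXII:390221-390520), at -204 in *RCN1* (chrXI:154402-154701) and at -245 and -177 in *CMK2* (chrXV:296071-296370).
NCW2: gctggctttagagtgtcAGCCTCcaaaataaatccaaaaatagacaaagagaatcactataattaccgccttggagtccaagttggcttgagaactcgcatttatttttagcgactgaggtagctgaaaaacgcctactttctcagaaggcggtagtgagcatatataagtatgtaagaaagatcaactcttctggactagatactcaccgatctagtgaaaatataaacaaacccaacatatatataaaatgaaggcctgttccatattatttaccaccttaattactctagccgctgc
YPS3: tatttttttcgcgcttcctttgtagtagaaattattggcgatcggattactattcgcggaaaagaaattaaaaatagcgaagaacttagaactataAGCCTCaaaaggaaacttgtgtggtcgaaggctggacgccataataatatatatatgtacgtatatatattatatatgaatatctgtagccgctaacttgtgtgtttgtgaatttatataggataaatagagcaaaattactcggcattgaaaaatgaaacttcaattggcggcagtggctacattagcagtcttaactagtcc
RCN1: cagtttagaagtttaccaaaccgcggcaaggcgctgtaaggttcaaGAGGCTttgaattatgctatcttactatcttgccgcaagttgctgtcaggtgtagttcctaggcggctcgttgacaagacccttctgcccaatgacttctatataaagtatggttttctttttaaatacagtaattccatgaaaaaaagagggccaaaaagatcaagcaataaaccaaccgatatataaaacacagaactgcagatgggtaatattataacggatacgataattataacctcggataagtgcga
CMK2: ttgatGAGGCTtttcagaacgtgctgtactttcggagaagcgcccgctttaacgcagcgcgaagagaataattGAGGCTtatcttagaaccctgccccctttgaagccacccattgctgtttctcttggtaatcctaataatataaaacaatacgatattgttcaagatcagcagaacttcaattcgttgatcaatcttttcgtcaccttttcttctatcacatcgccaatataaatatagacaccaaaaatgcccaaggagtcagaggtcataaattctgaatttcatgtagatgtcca

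None of 30 tested genes of the pheromone pathway and none of 33 tested genes of mating and fusion was called. Of all genes 0.751% rose and 0.167% fell, so the absence of calls in lists of this size says little. The median changes of the lists were 0.10 and 0.14, beside 0.05 for all genes. These list medians were 0.02 and 0.07 with libraries centred on their median, which lowers the change of every gene by the same amount. Without the 500 nM library of experiment 1 the pathway median was 0.05, and without that of experiment 2 the mating median was 0.06. *FUS1*, encoding a protein of cell fusion, was at 377, 359 and 391 RPKM in experiment 1 and at 321 and 299 RPKM in experiment 2. At 500 nM it was higher than at 50 nM in experiment 1 and lower in experiment 2, and the change was 0.04 (standard error 0.24, adjusted p = 0.918). *FUS3*, encoding the MAPK, had -0.01, *STE2* -0.12 and *SST2*, encoding the GTPase-activating protein of the pathway, -0.15, with adjusted p-values of 0.310 to 0.979. *FIG1*, needed for calcium influx during mating, had 0.18 (standard error 0.24, adjusted p = 0.631) at 1168 to 1369 RPKM.

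*PTP2* (YOR208W), encoding a tyrosine phosphatase of MAPKs, was at 26.1, 47.3 and 51.9 RPKM in experiment 1 and at 19.6 and 46.0 RPKM in experiment 2. The 100 nM library lay between the 500 nM libraries. *PTP2* had 0.80 (standard error 0.21, adjusted p = 0.0291), under 2-fold, and 1.08 (adjusted p = 7.4e-05) against 50 nM only, which was called. *DIG2*, encoding an inhibitor of Ste12, was at 41.3, 45.2 and 56.9 RPKM in experiment 1 and at 32.2 and 48.0 RPKM in experiment 2. Its 500 nM libraries were the highest of the 5, with 0.45 (standard error 0.11, adjusted p = 0.0254). *MSG5*, encoding a phosphatase of Fus3, had 0.27 (standard error 0.10, adjusted p = 0.0912), and in experiment 1 it was at 107 and 106 RPKM at 100 and 500 nM.

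Some mating genes passed the adjusted p without reaching 2-fold, namely 3 higher and 1 lower of 33 (9.09% and 3.03%), shares below the 11.8% and 8.67% of all genes. The one that was lower is *AGA2*, encoding the adhesive subunit of **a**-agglutinin, which was at 1228, 874 and 689 RPKM in experiment 1 and at 1372 and 712 RPKM in experiment 2. It was lowest in both 500 nM libraries, with -0.71 (standard error 0.17, adjusted p = 0.0237). *HYM1* had 0.74 (adjusted p = 0.0236) and *PRM5*, a pheromone-regulated gene, 0.63 (adjusted p = 0.0325). *PRM10* had 0.80 with an adjusted p of 0.0518, and against 50 nM only it was called with 1.06 (adjusted p = 0.00462).

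**Figure D3:**
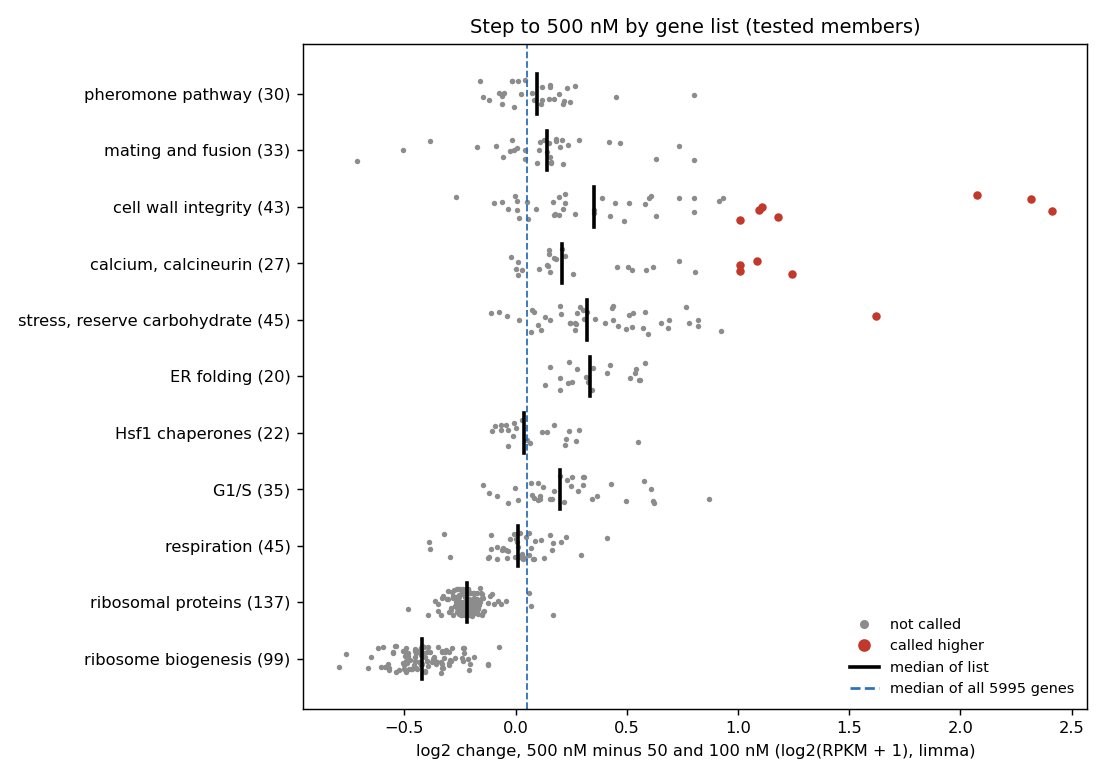
Change from 50 and 100 nM to 500 nM (x axis, log2(RPKM + 1), limma) of the tested members of 11 gene lists (y axis, number of members in parentheses), 1 point per gene with vertical scatter for display only, black bars for list medians and a dashed line for the median of all 5995 genes (0.05). Genes called higher, in red, lie in the cell wall integrity, calcium and stress lists, and the 99 genes of ribosome biogenesis are all below 0.

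In experiment 1 the 100 nM library divides the step. It lay between the 50 and 500 nM libraries in 41 of the 45 rising genes (91.1%) and in 62.1% of all genes with a change above 0. The call used these libraries and favours a level at 500 nM above that at 100 nM. The median of the 45 was 0.88 from 50 to 100 nM and 0.57 from 100 to 500 nM. *YPS3* had 2.41 and 0.49, *NCW2* 2.22 and 0.66 and *RCN1* 1.26 and 0.38, so that most of their difference lay below 100 nM. In 13 of the 41 coding genes (31.7%) the part from 100 to 500 nM was the larger. These were *ATG8*, *CPP3*, *FMP48*, *HXT5*, *NQM1*, *PHM7*, *PST1*, *RTC3*, *SNO1*, *SPG4*, *THI4*, YBR071W and YNL194C. In 52.7% of all genes tested, falling ones included, the signed change from 100 to 500 nM exceeded that from 50 to 100 nM. For a falling gene a smaller fall counts here, so this share is not a like background. Among all genes with a change above 0 the medians of the parts were 0.11 and 0.13. With 1 library at 100 nM these orders have no replicate.

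**Figure D4:**
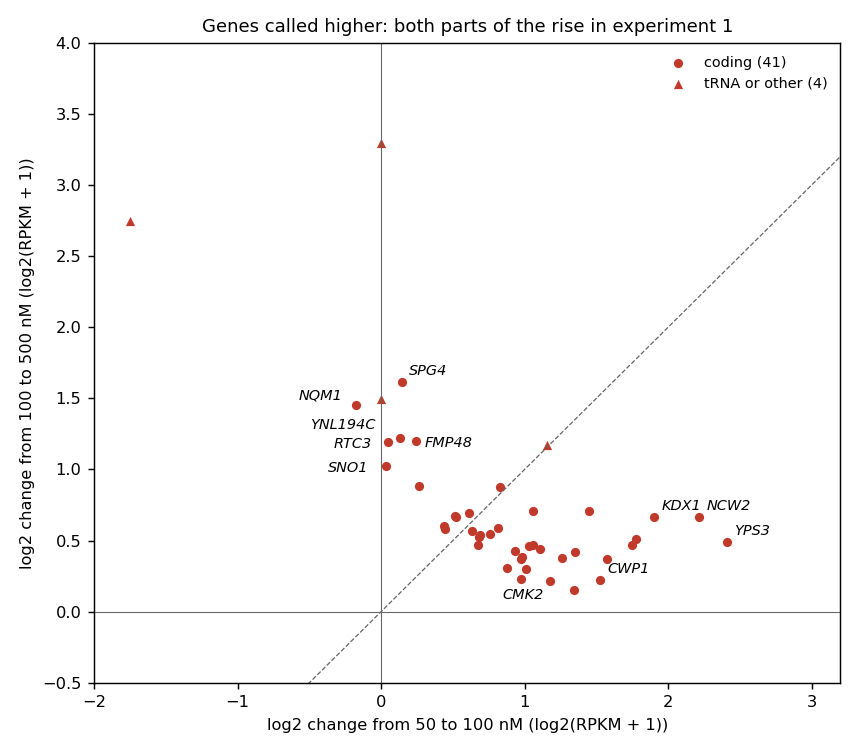
Change from 50 to 100 nM (x axis) and from 100 to 500 nM (y axis) in experiment 1, both as differences of log2(RPKM + 1), for the 45 genes called higher, with circles for coding genes, triangles for tRNA genes and other reading frames, and a dashed line where both parts are equal. *YPS3*, *NCW2* and *KDX1* lie far below the line, while *SPG4*, *NQM1*, YNL194C, *RTC3*, *FMP48* and *SNO1* lie near 0 on the x axis and above the line.

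*RTC3* (YHR087W, chrVIII:280820-281155), encoding a protein linked to RNA metabolism, was at 31.1, 32.2 and 74.8 RPKM at 50, 100 and 500 nM in experiment 1 and at 24.5 and 114.7 RPKM at 50 and 500 nM in experiment 2. Both 500 nM libraries stood well above the other 3, which lay close together, and it rose by 1.62 (standard error 0.18, adjusted p = 0.00786). *NQM1* (YGR043C, chrVII:580435-581436), encoding a transaldolase, was at 8.90, 7.77 and 23.0 RPKM in experiment 1 and at 5.82 and 32.2 RPKM in experiment 2. Its groups did not overlap either, and its rise of 1.74 (standard error 0.18, adjusted p = 0.00725) had the lowest adjusted p of the rising genes. *SPG4* (YMR107W), required for survival at high temperature in stationary phase, was at 2.44, 2.80 and 10.7 RPKM in experiment 1 and at 2.13 and 7.43 RPKM in experiment 2. It was more than 2-fold higher in each 500 nM library than in any of the others of the step, and rose by 1.56 (standard error 0.19, adjusted p = 0.0107).

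These genes had been high at a lower dose. *RTC3* was at 76.7 and 93.4 RPKM at 10 nM in experiments 1 and 2, *NQM1* at 16.03 and 19.3 RPKM and *SPG4* at 7.57 and 7.41 RPKM. At 15 nM, a dose of experiment 1 only, *RTC3* was at 21.5 RPKM and *NQM1* at 5.58 RPKM, below their 10 and 20 nM libraries. In 6 of the 45 rising genes (13.3%) the level at 10 nM was more than 1.5 times those of mock-treated cells and of 50 nM in both experiments, and in 0.701% of all genes. The 6 were *NQM1*, *RTC3*, *SPG4*, YNL194C, *PHM7* and *HXT5*, all of which are among the 13 named above. The rule that formed this group was set after the values were seen, so its shares are descriptions.

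Of 45 tested genes of the Msn2 and Msn4 stress response and reserve carbohydrates, *RTC3* rose and none fell (0.751% and 0.167% of all genes). At any fold 23 (51.1%) passed the adjusted p higher and 0 lower, beside 11.8% and 8.67% of all genes. The median change was 0.32, beside 0.05 for all genes. Above 0 were 42 of the 45, and 3559 of all 5995 genes. *GPD1* and *GPP2*, genes of glycerol synthesis, had 0.82 each (adjusted p = 0.0175 and 0.0189), the trehalase gene *NTH1* 0.78 (adjusted p = 0.0191) and the chaperone gene *HSP42* 0.92 (adjusted p = 0.0269). *HSP12*, an often used marker of the stress response, had 0.46 and missed the threshold (adjusted p = 0.118). Of 22 tested Hsf1 chaperone genes none was called (0.751% and 0.167% of all genes), with a median of 0.04. It was -0.03 with libraries centred on their median, which lowers the change of every gene by the same amount.

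*HXT5* (YHR096C), encoding a hexose transporter made when growth is slow, was at 4.20, 6.47 and 10.9 RPKM in experiment 1 and at 3.07 and 12.4 RPKM in experiment 2. It was highest in both 500 nM libraries and rose by 1.26 (standard error 0.27, adjusted p = 0.0210). *SNZ1* and *SNO1*, divergent neighbours on chromosome XIII that act together in vitamin B6 synthesis, rose by 1.13 (adjusted p = 0.0189) and 1.16 (adjusted p = 0.0305). They were the 2 genes called among 50 tested on the Gcn4 amino acid list (0.751% of all genes rose). The median of this list was -0.04, and 29 of the 50 were below 0. At any fold 5 (10%) passed the adjusted p higher and 10 (20%) lower, beside 11.8% and 8.67% of all genes.

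All 20 tested genes of protein folding in the endoplasmic reticulum were above 0 (3559 of all 5995 genes were). Their changes were 0.13 to 0.58 with a median of 0.34, beside 0.05 for all genes. At any fold 14 (70%) passed the adjusted p higher, beside 11.8% of all genes. None reached 2-fold. *PDI1*, encoding protein disulphide isomerase, was at 504, 649 and 803 RPKM in experiment 1 and at 451 and 702 RPKM in experiment 2. It was highest at 500 nM in both, with 0.54 (standard error 0.12, adjusted p = 0.0232). The chaperone gene *KAR2* had 0.35 (adjusted p = 0.0243) and *HAC1*, encoding the factor of the unfolded protein response, 0.25 (adjusted p = 0.0432).

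All 99 tested genes of ribosome biogenesis were below 0 (2436 of all 5995 genes were), with a median of -0.42. In 89 of them both 500 nM libraries lay below the 3 at 50 and 100 nM, an order seen in 15.9% of all genes. At any fold, 82 (82.8%) passed the adjusted p lower and 0 higher, beside 8.67% and 11.8% of all genes. None of the 99 reached 2-fold. From mock to 50 and 100 nM the median of the list was already -0.44. In experiment 1 the median to 500 nM was -0.49 from 50 nM and -0.19 from 100 nM. *ALB1*, encoding a shuttling factor of the large subunit, was at 83.2, 52.1 and 39.7 RPKM in experiment 1 and at 75.8 and 39.3 RPKM in experiment 2. Its 500 nM libraries were the lowest, and its -0.79 (standard error 0.16, adjusted p = 0.0191) was the largest difference of the list, followed by *UTP23* (-0.76, adjusted p = 0.020). Of 137 tested genes of cytosolic ribosomal proteins, 134 were below 0, with a median of -0.22. At any fold 89 of them (65%) passed the adjusted p lower, beside 8.67% of all genes. With libraries centred on their median or quantile normalized, the medians were -0.49 and -0.45 for biogenesis and -0.29 and -0.16 for ribosomal proteins.

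Among further rising genes, *BAG7*, encoding a GTPase-activating protein for Rho1, was at 12.4, 45 and 64.5 RPKM in experiment 1 and at 12.6 and 68.1 RPKM in experiment 2, and rose by 1.71 (standard error 0.45, adjusted p = 0.0285). *CPP3*, encoding a small protein of the plasma membrane, was at 25.7, 46.5 and 86.1 RPKM in experiment 1 and at 15.2 and 123 RPKM in experiment 2, and rose by 1.90 (standard error 0.46, adjusted p = 0.0244). In both genes the 500 nM libraries were above the other 3. *MNC1*, encoding a small membrane protein induced by metals, was at 90.8, 233 and 312 RPKM in experiment 1 and at 48.0 and 323 RPKM in experiment 2, and rose by 1.69 (adjusted p = 0.0371). *PUN1*, encoding a plasma membrane protein linked to wall integrity, was at 132, 285 and 387 RPKM in experiment 1 and at 111 and 405 RPKM in experiment 2, and rose by 1.30 (standard error 0.29, adjusted p = 0.0218).

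The methyltransferase gene *CRG1* and YPL088W, encoding a putative aryl alcohol dehydrogenase, each rose by 1.65 (adjusted p = 0.0325 and 0.0259). *SRL3*, encoding a relative of the cell cycle repressor Whi5, rose by 1.53 (adjusted p = 0.0218) and *YPT53*, encoding a Rab GTPase, by 1.39 (adjusted p = 0.0231). *RTA1*, YNL194C and *PHM7*, encoding membrane proteins, rose by 1.36, 1.32 and 1.32. All of these had both 500 nM libraries above the other 3.

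By the mean of the log2 values at 50 and 100 nM within an experiment, averaged over both experiments, 20 of the 45 rising genes had been at least 1.5-fold above mock, 16 were within 1.5-fold of it and 9 were below. Among all genes with a change above 0, these shares were 6.55%, 78.5% and 14.9%. The difference from mock and the step to 500 nM share the libraries at 50 and 100 nM. *KDX1*, *NCW2*, *BAG7*, *CMK2* and *GSC2* were of the first kind and *YPS3*, *RCN1*, *RTC3*, *NQM1* and *CRG1* of the second. The mean hides differences between these doses, since *YPS3* was below its mock level at 50 nM in both experiments and above it at 100 nM, and *RCN1* and *CRG1* were above mock at 100 nM. In 34 of the 45 (75.6%) both 500 nM libraries were above the 16 other libraries of the series, an order seen in 11.4% of all genes. The call favours this order too, since its reference libraries are among the 16.

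The genes that fell were, *TIP1* aside, weakly expressed. *MIN7* (YBR201C-A), encoding a small mitochondrial protein, was at 4.18, 4.39 and 1.01 RPKM in experiment 1 and at 5.09 and 2.12 RPKM in experiment 2, and fell by 1.18 (adjusted p = 0.0399). YPL038W-A was at 9.33, 6.79 and 1.08 RPKM in experiment 1 and at 7.34 and 5.40 RPKM in experiment 2, and fell by 1.28 (adjusted p = 0.0442). The reading frame YNL171C fell on 13, 8 and 2 reads in experiment 1 and 32 and 4 reads in experiment 2. In the shallow 500 nM library of experiment 1 each value of *MIN7* and YPL038W-A rests on 1 read, against 10 and 21 reads at 50 nM. None of the 6 tRNA genes that fell had a read there. For tP(UGG)O3 the reads were 4, 8 and 0 in experiment 1 and 6 and 1 in experiment 2, and for tP(AGG)C they were 3, 4 and 0 and 4 and 0, close to the 3 reads that a count of 0 allows. Of the falling genes, tK(UUU)D and tP(AGG)C had been at least 1.5-fold above mock in the mean of 50 and 100 nM, averaged over both experiments. The rising tG(GCC)F2, tA(AGC)K2 and YLR163W-A had at most 3 reads in any of the 5 libraries. Copies of a tRNA gene share sequence, and how reads with several map positions were counted is not given in the sources used here.

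In 40 of the 45 rising genes the step was larger in experiment 2, where the reference was 50 nM alone. With 50 nM as the reference in both experiments it was still larger in experiment 2 in most of the 45, though not in all. For the change from 50 to 500 nM, a test of the difference between the experiments gave 0 of 5995 genes at an adjusted p under 0.05 (lowest 0.795, limma) and 269 at an unadjusted p under 0.05. At least 2-fold above 50 nM in both experiments, with no test, were 63 genes (1.05%), and 10 (0.167%) were at least 2-fold below. With the 100 nM library included in the reference of experiment 1 the numbers were 25 (0.417%) and 6 (0.1%). Of the 6 tested *MAT***a**-specific genes, 5 were below 0, with a median of -0.10. Among them *STE6* had -0.09 and *MFA2* -0.01 (adjusted p = 0.412 and 0.967), and *AGA2*, given above, was the lowest with -0.71. The *MATα* markers *STE3* and *SAG1* were at 1.38 to 4.20 and 6.03 to 12.3 RPKM in the 5 libraries, with 0.61 (adjusted p = 0.0577) and -0.60 (adjusted p = 0.0196).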

How the data were processed

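RNA-seq of 18 libraries in 2 experiments, described by the study as independent, was used. The authors deposited RPKM per gene, 1 table per experiment. The submitters' processing notes name Bowtie 0.12.2 and sacCer3, whereas the methods of the study name a later major version of Bowtie and a genome from Ensembl. Of 7126 listed IDs, 6048 matched R64 locus tags. Reads recovered from RPKM and transcript length were whole (within 0.02) for 99.7 to 100% of low values and gave the depths, 4870000 (500 nM, experiment 1) to 16660000.

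Log2(RPKM + 1) was fitted with limma 3.58.1 (lmFit, eBayes with trend, R 4.3.3) for genes with a mean of at least 1 RPKM in all 18 libraries, with 1 level per dose, 50 and 100 nM merged, and the experiment as block (7 residual degrees of freedom). Libraries of 1 experiment deviated together over 7 shared doses (correlation 0.178 to 0.466, mean 0.354, 21 pairs), and the pairing comes from the tables. Tables and figures were made with Python 3.11.15, pandas 2.3.3, numpy 2.4.6 and matplotlib 3.10.9, and the fit was tested on simulated data. Named by rule were the 15 largest rises and 12 largest falls among called genes with an annotated name, called pathway and mating genes, *PTP2*, *MSG5*, *DIG2* and *SLT2*, up to 4 called members of each other list, and the 3 largest changes in each direction of genes that had moved the other way from mock. Other genes were named after their values were seen. The members and lists were chosen with earlier results of these data known. Alternatives were the block, the libraries, pseudocount, filter, scaling, eBayes trend, limma-voom on recovered reads and leaving out each library. Chosen after seeing the data were limma-voom against 50 nM only, a 2-fold change in both experiments without a test, no limit on the fold, and the order of the 500 nM libraries against all others. The result for 1 of the recognition sequences searched in promoters is not reported here.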

Additional observations from a re-analysis of the deposited data

Results flagged for a closer look

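In 4 gene lists the median change to 500 nM had 1 sign in experiment 1, against both 50 and 100 nM, and the opposite sign in experiment 2, a difference that was not tested. Lists whose sign in experiment 1 differed between the references are not counted. Pheromone pathway components had -0.00522 in experiment 2, and 0.12 against 50 nM and 0.10 against 100 nM in experiment 1. Small nucleolar RNAs had -0.163 in experiment 2, and 0.37 and 0.14 in experiment 1, whose 500 nM library was the shallowest; the part of depth in this was not tested. Ty open reading frames had -0.144, and 0.08 and 0.14. The 2 tested markers of *α* cells had a median of 0.0228, and -0.04 and -0.02. No group held enough libraries to look for a single one apart from the rest.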

How the results depend on the processing

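Depth and the number of libraries limit these results, since the 500 nM level rests on 1 library per experiment and that of experiment 1 is shallow. Genes called higher, 45, were 16 with no replicate block, 0 with only the 5 libraries, 94 against 50 nM only, 22 with a pseudocount of 5 and 29 with quantile normalization. They were 2 to 94 when 1 library was left out and 102 against 50 nM only with limma-voom. Genes called lower, 10, were 5 with no replicate block, 0 with the 5 libraries or a pseudocount of 5, 6 with no filter, 4 with a mean of at least 5 RPKM, 6 without the trend, 2 with limma-voom and 0 to 14 when 1 library was left out. With no test, 72 and 36 genes changed at least 2-fold higher and lower in experiment 1 alone and 152 and 47 in experiment 2 alone, and 25 and 6 in both against 50 and 100 nM. With no limit on the fold there were 705 and 520. The fit with the experiment as block is the one reported for the pairing, and without it 23 of the 39 genes named by rule fell short of the threshold. The causes were not tested. Of the rising genes, those within a set fold of mock were 8 at the narrower limit tried and 29 at 2-fold, and those already above it were 9 at 2-fold. Of the falling genes, 3 were within the narrower limit, 0 were already below at 2-fold, and 5 (narrower limit) or 4 (baseline from 0 to 0.25 nM) had been above. None of the 39 genes named by rule reversed under an alternative, which was not examined for the other genes named. For the called ones this adds little, since the call requires the same direction in both experiments and the alternatives reuse its libraries. The medians of the cell wall integrity, calcineurin, stress, folding and ribosome lists kept their sign wherever an alternative gave one.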
